A study of Rattus norvegicus with 6 samples.

Results

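Genes for plasma membrane carriers of carboxylates, organic ions and related solutes were followed through lists of genes with a peak of H3K27me3, a trimethylated form of histone H3, in primary cardiomyocytes of neonatal Sprague Dawley rats. The members were all entries whose gene symbol, ignoring letter case, began with Slc5a, Slc13a, Slc16a or Slc22a and a number, or with Slco1 to Slco6. The lists held 64 such entries of 22427 entries in all: 12 of SLC5, 5 of SLC13, 13 of SLC16, 19 of SLC22 and 15 of SLCO, each with its own Ensembl gene ID. The α-KG group was 2 libraries from cells given 5 mM α-ketoglutarate (α-KG) for 24 h, and the control group was 2 libraries from cells given phosphate-buffered saline (PBS) for 24 h, called α-KG 1, α-KG 2, control 1 and control 2 below. All cells came from heart and were grown on coated plates in medium with serum, and the labels name no genetic change. The α-KG and control samples titled as inputs, whose antibody label reads IgG, were not used here.

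H3K27me3 is placed by a Polycomb repressive complex and is found at genes that a cell keeps silent, and its removal is catalysed by demethylases that use α-KG as a cosubstrate. The 5 families carry small solutes, many of them charged, across the plasma membrane: SLC13 proteins bring in sulphate, or dicarboxylates and citrate, with sodium, SLC16 proteins include the proton-coupled carriers of lactate and pyruvate, and SLC5 proteins couple sugars, monocarboxylates, vitamins or iodide to sodium. SLC22 holds the organic cation, carnitine and organic anion carriers, and SLCO the organic anion transporting polypeptides of liver, kidney, brain and testis. Kidney organic anion carriers of SLC22 exchange their substrates for intracellular α-KG, and heart muscle takes up lactate, ketone bodies and carnitine through SLC16 and SLC22 proteins.

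The lists record only whether a library had a peak for a gene. They hold no expression values, so a listed gene cannot be called silent from them. The strength and position of its peak and the read depth are unknown, so an unlisted gene may lack the mark or may lie below detection, and a bulk library cannot tell fewer marked cells apart from less mark per cell. The labels do not say that the replicates were separate cultures, so each p-value measures only the spread between these libraries. The complete lists held 18120 (α-KG 1), 19181 (α-KG 2), 17245 (control 1) and 18442 genes (control 2).

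Most of the transporter genes were listed whether or not the cells had received α-KG. All 4 libraries listed 42 of the 64 entries (65.6%), against 62.8% of all entries and 196 of the 288 other solute carrier entries (68.1%). Of the remaining entries, 13 were listed in 3 libraries, 6 in 2 and 3 in 1. α-KG 1 listed 59 entries, α-KG 2 listed 54, control 1 listed 55 and control 2 listed 54. α-KG 1 thus stood above the other libraries, which lay within 1 entry of each other, and the groups overlapped at 54. The means were 56.5 ± 3.54 entries for α-KG and 54.5 ± 0.707 for control (SD, n = 2 each), and the difference of 2 entries had p = 1.0 in a two-sided exact permutation test. With 2 libraries against 2 that test cannot give less than 0.333. Without α-KG 1 the difference was -0.5.

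**Figure D1:**
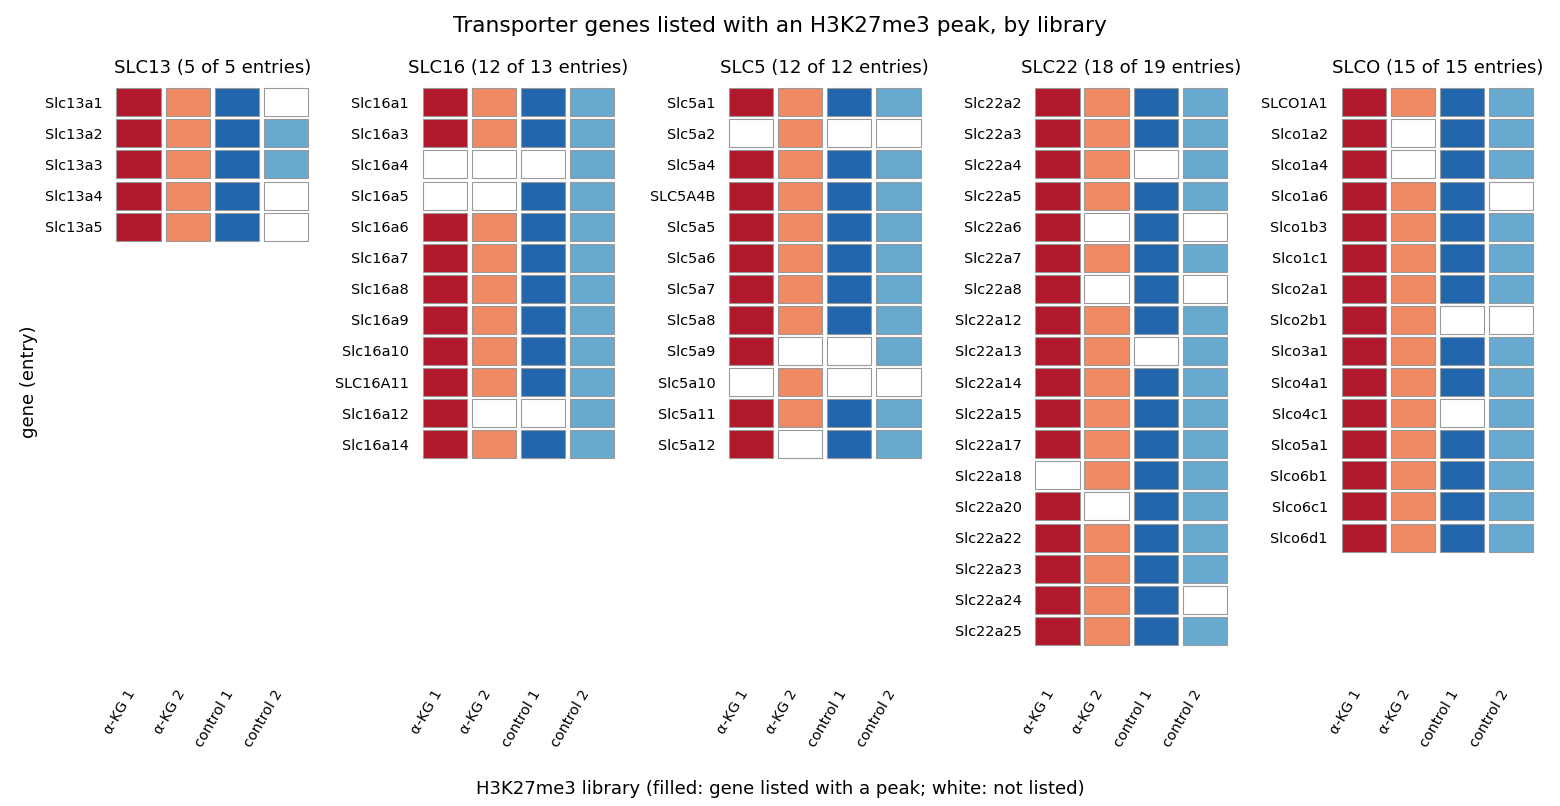
Each row is a transporter gene and each column an H3K27me3 library, in 5 panels by family; a filled square means that the library lists the gene with a peak and a white square that it does not. Rows filled throughout are entries in all 4 libraries, 2 entries are not shown, Slc16a5 is filled for the controls alone and Slco2b1 in both α-KG libraries alone.

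α-KG 2 had the longest list but not the most transporters. Of its 19181 genes 0.282% were members, against 0.326% in α-KG 1, 0.319% in control 1 and 0.293% in control 2. The mean share was 0.304 ± 0.0312% for α-KG and 0.306 ± 0.0185% for control (SD, n = 2 each; exact two-sided permutation p = 1.0). The sign of that difference turned in 3 of the 8 other settings tried. Other solute carriers did follow list length: 232 (α-KG 1), 269 (α-KG 2), 214 (control 1) and 244 (control 2) of 288 were listed. α-KG 2 therefore listed 84.4% of the members, 93.4% of the other solute carriers and 85.5% of all entries, values without a test.

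**Figure D2:**
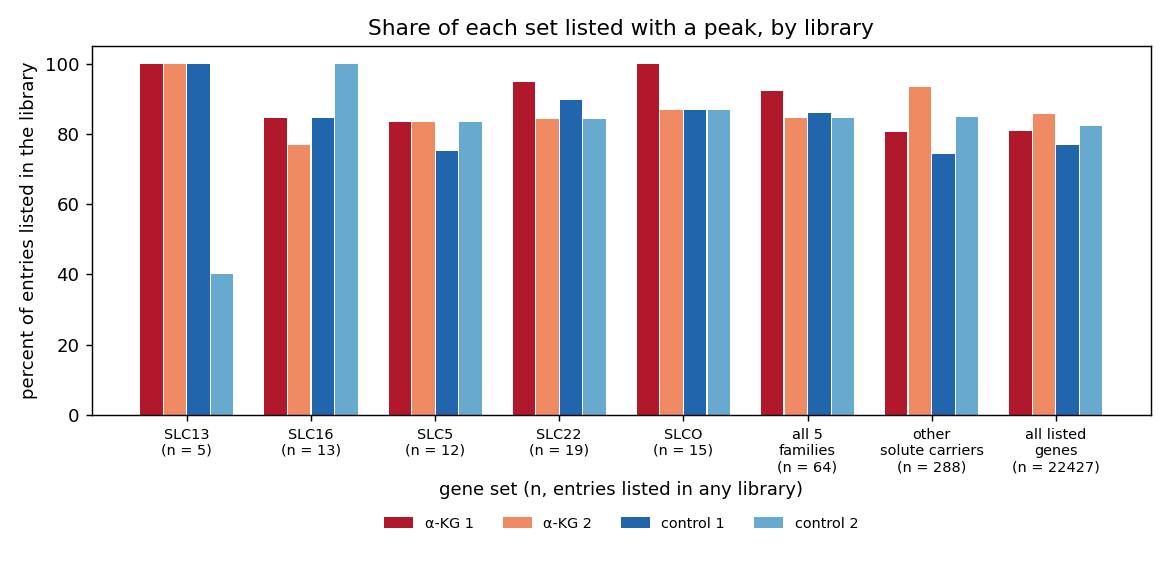
Bars give the percent of each gene set that each library lists, for the 5 transporter families, all of them together, other solute carriers and all listed genes; there is 1 bar per library and so no error bar. SLC13 falls to 40.0% in control 2 alone, SLC16 is complete in control 2 alone, and SLCO is complete in α-KG 1 alone.

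Of the sodium-coupled SLC13 genes, both carriers of dicarboxylates were listed in all 4 libraries. Slc13a2 encodes NaDC1, which takes citrate and succinate from the urine, and Slc13a3 encodes NaDC3, a high-affinity carrier of succinate and α-KG. Slc13a5, which encodes the citrate carrier NaCT, was listed in α-KG 1, α-KG 2 and control 1 and not in control 2. The sulphate carrier genes Slc13a1 and Slc13a4 had the same pattern as Slc13a5. SLC13 thus had 5 (α-KG 1), 5 (α-KG 2), 5 (control 1) and 2 (control 2) of 5 entries, and control 2 was the only library without all of them (exact two-sided permutation p = 1.0). That p was fixed in advance, since all libraries but control 2 had the same count and every assignment gives a difference of the same size. Slc13a5, Slc13a1 and Slc13a4 were among 5 transporter entries listed everywhere but in control 2 (7.81%). That pattern held for 1.69% of all entries and 3 of 288 other solute carriers (1.04%). The pattern was not among the planned results, and the difference was not tested.

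Sequences just upstream of the transcription start are shown for the SLC13 carboxylate carriers and for genes whose listing is described further on. They come from the RefSeq annotation of assembly GRCr8 and run from 250 bases before to 50 bases after the start, 5′ to 3′ on the gene's strand, with each CG dinucleotide in capitals. CG-rich promoters are a known place of Polycomb binding in mammals, but the lists do not say whether any peak lay in these windows. The windows are chr10:63817135-63817434 (- strand) for Slc13a2, chr3:174623844-174624143 (- strand) for Slc13a3, chr10:57388799-57389098 (- strand) for Slc13a5, chr1:214927034-214927333 (+ strand) for Slc22a8, chr1:163408016-163408315 (- strand) for Slco2b1 and chr2:194812410-194812709 (+ strand) for Slc16a1.
Slc13a2: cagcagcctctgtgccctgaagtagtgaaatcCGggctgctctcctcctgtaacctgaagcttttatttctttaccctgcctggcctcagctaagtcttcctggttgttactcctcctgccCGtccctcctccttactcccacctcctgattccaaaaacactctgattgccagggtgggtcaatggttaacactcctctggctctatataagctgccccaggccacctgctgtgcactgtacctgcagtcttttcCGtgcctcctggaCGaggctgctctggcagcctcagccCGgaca
Slc13a3: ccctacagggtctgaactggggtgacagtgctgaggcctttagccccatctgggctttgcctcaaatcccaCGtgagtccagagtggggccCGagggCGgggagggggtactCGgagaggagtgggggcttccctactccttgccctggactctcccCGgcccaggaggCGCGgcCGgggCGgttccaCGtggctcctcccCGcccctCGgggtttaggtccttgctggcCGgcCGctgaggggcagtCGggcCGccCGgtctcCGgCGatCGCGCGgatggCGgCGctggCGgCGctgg
Slc13a5: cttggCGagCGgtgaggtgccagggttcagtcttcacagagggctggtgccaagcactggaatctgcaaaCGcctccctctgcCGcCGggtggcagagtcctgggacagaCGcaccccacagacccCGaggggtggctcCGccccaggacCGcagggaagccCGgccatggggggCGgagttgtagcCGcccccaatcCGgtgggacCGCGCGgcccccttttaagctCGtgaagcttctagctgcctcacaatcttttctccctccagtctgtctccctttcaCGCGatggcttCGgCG
Slc22a8: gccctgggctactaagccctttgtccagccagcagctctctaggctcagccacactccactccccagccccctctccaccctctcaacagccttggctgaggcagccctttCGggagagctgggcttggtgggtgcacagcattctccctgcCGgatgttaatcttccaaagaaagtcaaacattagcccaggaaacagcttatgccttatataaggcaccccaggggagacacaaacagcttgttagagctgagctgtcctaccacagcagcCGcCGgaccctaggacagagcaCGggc
Slco2b1: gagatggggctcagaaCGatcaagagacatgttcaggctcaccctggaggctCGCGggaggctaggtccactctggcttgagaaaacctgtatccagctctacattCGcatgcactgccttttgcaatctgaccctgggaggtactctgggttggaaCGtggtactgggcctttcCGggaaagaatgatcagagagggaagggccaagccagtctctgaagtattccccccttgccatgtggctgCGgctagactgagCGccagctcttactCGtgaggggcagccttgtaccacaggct
Slc16a1: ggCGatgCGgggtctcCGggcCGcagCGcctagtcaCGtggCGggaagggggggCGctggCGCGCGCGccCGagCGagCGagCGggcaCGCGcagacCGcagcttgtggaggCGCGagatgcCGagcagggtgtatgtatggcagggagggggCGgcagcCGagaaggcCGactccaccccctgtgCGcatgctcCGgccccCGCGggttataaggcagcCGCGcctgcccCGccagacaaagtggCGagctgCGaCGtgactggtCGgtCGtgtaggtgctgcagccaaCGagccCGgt

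The motif counted was CG, which reads the same on both strands. The median over the 24206 genes with a single window in the table was 8. The window of Slc13a2 held 5 CG, a count reached by 64.5% of those windows, and the window of Slc13a3 held 26, reached by 17.2%. Both genes were listed in all 4 libraries. The window of Slc13a5 held 21 CG (reached by 25.7%), and control 2 did not list that gene. Slc22a8 had 5 CG (64.5%), Slco2b1 had 9 (48.1%) and Slc16a1 had 39 (4.11%). A window could be matched for 51 of the 64 entries (79.7%), 1 of them by an older symbol, and Slc16a5 and Slc22a6 were not among them. Under 80% matched, the planned comparison of CG counts between entries in all 4 libraries and the others is void and was not made.

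The classical SLC16 carriers of lactate and pyruvate, like 62.8% of all entries, were listed in every library. They are Slc16a1 (MCT1, the broadly expressed carrier that the heart uses), Slc16a7 (MCT2, with high affinity for pyruvate), Slc16a8 (MCT3, of retinal pigment epithelium) and Slc16a3 (MCT4, which exports lactate from glycolytic cells). So were the aromatic amino acid carrier Slc16a10 (TAT1), Slc16a6, Slc16a9, SLC16A11 and Slc16a14. Slc16a12, whose human protein carries creatine, was listed in α-KG 1 and control 2. Slc16a4 was listed in control 2 only.

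Slc16a5 was the only member that both controls listed and both α-KG libraries lacked, a pattern called lost here. Its human product MCT6 carries drugs such as bumetanide. Of the 48 transporter entries listed in both controls, 1 was lost (2.08%), against 3.22% of all 16005 entries listed in both controls. Of other solute carriers listed in both controls, 1 of 206 was lost (0.485%). Without α-KG 1, lost entries numbered 5 of 48 (10.4%, against 8.55% of all entries). Without α-KG 2 they numbered 2 of 48 (4.17%, against 6.72%) and without control 1 they numbered 2 of 54 (3.70%, against 5.56%). With 3 libraries the pattern is easier to meet, which raised these counts by construction. SLC16 as a family had 11 (α-KG 1), 10 (α-KG 2), 11 (control 1) and 13 (control 2) of 13 entries. The ranges of the groups met at 11 (exact two-sided permutation p = 0.667).

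The sodium-coupled monocarboxylate carriers of SLC5, which take up lactate, pyruvate and ketone bodies in kidney and gut, differed in 1 library. Slc5a8 (SMCT1) was listed in all 4 libraries. Slc5a12 (SMCT2) was listed in α-KG 1, control 1 and control 2 and not in α-KG 2. Transporter entries missing from α-KG 2 alone numbered 4 (6.25%, against 3.80% of all entries), and Slc22a20, Slco1a2 and Slco1a4 were the others. The shares were not tested.

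Among organic anion carriers of SLC22, the pair that exchanges substrates for α-KG in the kidney split by replicate number. Slc22a6 (OAT1) and Slc22a8 (OAT3) were both listed in α-KG 1 and control 1 and in neither α-KG 2 nor control 2. This pattern held for 2 of the 64 transporter entries (3.12%), against 1.06% of all entries, and it divides the libraries across treatment. It was not a planned result, and these shares were not tested. Slc22a7 (OAT2) was listed in all 4. The 4 libraries also shared Slc22a12 (URAT1, a kidney carrier of urate), Slc22a22 (a prostaglandin carrier) and Slc22a25. Slc22a13, whose human product OAT10 carries urate and nicotinate, was listed everywhere but in control 1, and Slc22a24 everywhere but in control 2. The 9 organic anion genes had 9 (α-KG 1), 6 (α-KG 2), 8 (control 1) and 6 (control 2) entries listed, so both replicate 1 libraries lay above both replicate 2 libraries. Over all entries the order was the reverse. Replicate 1 libraries listed 80.8% (α-KG 1) and 76.9% (control 1), and replicate 2 libraries 85.5% (α-KG 2) and 82.2% (control 2). The neighbouring genes Slc22a6 and Slc22a8 were among the 9, and the difference was not tested.

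Most of the cation and carnitine carriers of SLC22, like 62.8% of all entries, were listed in every library, and no test was made on so short a list. Slc22a2 and Slc22a3, which encode the organic cation carriers OCT2 and OCT3, were in all 4 libraries, as was Slc22a5, which encodes the carnitine carrier OCTN2 that supplies heart muscle. Slc22a4 (OCTN1), whose human product carries ergothioneine, was missing from control 1. Of the other SLC22 genes, Slc22a14, Slc22a15, Slc22a17 and Slc22a23 were in all 4 and Slc22a18, imprinted in mouse and human, was missing from α-KG 1. SLC22 as a family had 18 (α-KG 1), 16 (α-KG 2), 17 (control 1) and 16 (control 2) of 19 entries, and the groups overlapped (exact two-sided permutation p = 1.0).

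The organic anion transporting polypeptides held the only member with the reverse pattern, called gained. In that pattern both α-KG libraries and no control list a gene. The member was Slco2b1, which encodes OATP2B1, a carrier of steroid sulphates. Of the 51 transporter entries in both α-KG libraries 1 was gained (1.96%), against 4.48% of all 16287 entries in both α-KG libraries. Of other solute carriers in both α-KG libraries, 5 of 222 were gained (2.25%). Without α-KG 1 gained entries numbered 3 of 54 (5.56%, against 11.9% of all entries). Without control 1 they numbered 6 of 51 (11.8%, against 6.81% of all entries) and without control 2 they numbered 4 of 51 (7.84%, against 11.2%). Slco4c1, a kidney carrier, was missing from control 1 alone. The prostaglandin carrier Slco2a1, Slco3a1, Slco4a1 and Slco5a1 were in all 4.

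The Slco1 genes, which lie in a cluster in the genome, did not share a pattern. SLCO1A1, Slco1b3 and the thyroxine carrier Slco1c1 were in all 4 libraries, Slco1a2 and Slco1a4 were missing from α-KG 2 and Slco1a6 was missing from control 2. The 3 Slco6 genes, Slco6b1, Slco6c1 and Slco6d1, known from rat testis, were in all 4. Slco1a genes are close copies, and reads or peaks can be split between them, so the state of any 1 of them is uncertain. SLCO as a family had 15 (α-KG 1), 13 (α-KG 2), 13 (control 1) and 13 (control 2) of 15 entries (exact two-sided permutation p = 1.0). That p was also fixed in advance, since all libraries but α-KG 1 had the same count.

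The sugar and inositol carriers of SLC5 included both genes listed in α-KG 2 alone. They were Slc5a2 (SGLT2, which reclaims glucose in the kidney) and Slc5a10, whose human product carries mannose and fructose. The share of transporters in α-KG 2 alone, 2 of 64 (3.12%), stood beside 6.96% of all entries and 9.72% of the other solute carriers, values without a test. Slc5a1 (SGLT1, the gut glucose carrier), Slc5a4, SLC5A4B and the inositol carrier Slc5a11 were in all 4, and Slc5a9 was in α-KG 1 and control 2. Slc5a5 (the iodide carrier of thyroid), Slc5a6 (a carrier of biotin and pantothenate) and Slc5a7 (the choline carrier of cholinergic neurons) were in all 4. SLC5 as a family had 10 (α-KG 1), 10 (α-KG 2), 9 (control 1) and 10 (control 2) of 12 entries (exact two-sided permutation p = 1.0). Here too p was fixed in advance, since all libraries but control 1 had the same count.

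Counted over all 5 families, 11 entries were listed in more α-KG than control libraries (17.2%, against 18.8% of all entries) and 7 in more control than α-KG libraries (10.9%, against 12.6%). Both shares stood near those of all entries. Both α-KG libraries listed 51 entries (79.7%, against 72.6% of all entries) and both controls listed 48 (75.0%, against 71.4%).

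**Figure D3:**
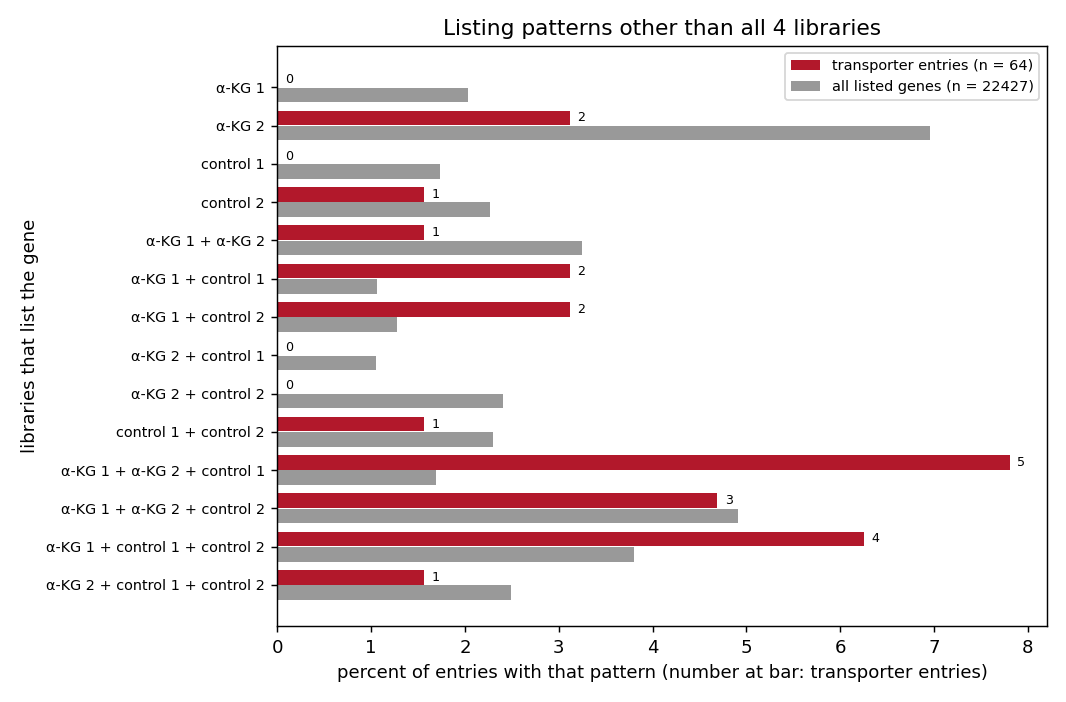
Bars give the percent of the 64 transporter entries and of all 22427 listed genes with each pattern of libraries other than all 4, and the number at each upper bar counts transporter entries. The pattern missing control 2 alone holds 5 transporter entries and the pattern of α-KG 2 alone holds 2.

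Over the transporter entries, the libraries did not group by treatment. For each pair of libraries, the entries in both were divided by the entries in either (Jaccard index), which gave 0.823 for the pair of α-KG libraries and 0.787 for the pair of controls. α-KG 1 and control 1 had the highest index (0.869, with 8 entries differing) and α-KG 2 and control 2 the lowest (0.742, with 16 differing). The remaining pairs had 0.823 (α-KG 1 with control 2) and 0.787 (α-KG 2 with control 1). The order over all entries was different: 0.775 for the α-KG pair, 0.813 for the controls (the highest), 0.784 for α-KG 1 with control 1, 0.806 for α-KG 1 with control 2, 0.762 for α-KG 2 with control 2 and 0.720 for α-KG 2 with control 1 (the lowest). No test was made, because each library enters 3 of the 6 pairs.

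Several members are neighbours. Whether a peak could count for more than 1 gene is unknown, since the rule that ties peaks to genes was not given. In the gene order of GRCr8, 9 pairs of listed members were next to each other, and 5 pairs had identical listing (55.6%), against 49.2% of 10324 neighbouring pairs of all listed genes. In 4 of these 5 pairs both genes were in all 4 libraries, among them Slc22a2 with Slc22a3, Slc5a4 with SLC5A4B, and Slco6c1 with Slco6d1. The fifth pair was Slc22a8 with Slc22a6. Slc22a25, the neighbour of Slc22a8 on the other side, was in all 4 libraries, so the pattern of the pair did not extend to it. Among pairs with at least 1 gene not in all 4 libraries, 1 of 5 member pairs had identical listing (20.0%). Over all listed genes such pairs matched in 244 of 5487 (4.45%), values without a test.

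Of 30 genes whose products work beside these carriers, 15 were in all 4 libraries, against 62.8% of all entries. The 30 encode receptors, enzymes, chaperones, scaffolds, efflux pumps, mitochondrial carriers and further solute carriers. Some of the 30 also belong to the other solute carriers counted above. None was lost or gained, and at the shares of all entries (3.22% lost, 4.48% gained) so short a list would hold few in any case. The lists held 25 (α-KG 1), 28 (α-KG 2), 20 (control 1) and 26 (control 2) of the 30, with α-KG 1 between the controls. Oxgr1, which encodes the receptor for extracellular α-KG, the succinate receptor gene Sucnr1 and the lactate receptor gene Hcar1 were in all 4. So was Emb, which encodes a chaperone of MCT proteins, whereas Bsg, which encodes the chaperone basigin, was in α-KG 2 and control 2. The mitochondrial carrier genes Slc25a10 and Slc25a11, for dicarboxylates and for α-KG against malate, were both missing from control 1, and the citrate carrier gene Slc25a1 was in all 4.

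Markers of cell types do not show which cells carried a peak, since the assay reads a mark and not expression. Cardiomyocyte markers had 6 (α-KG 1), 6 (α-KG 2), 6 (control 1) and 7 (control 2) of 10 genes listed, with no entry for Myh6. Of their 9 entries, 5 were in all 4 libraries (Actc1, Actn2, Myl2, Pln and Tnnt2), against 62.8% of all entries. Myh7 was in α-KG 2 only, Tnni3 in α-KG 1 only and Nppa in control 2 only. The calcium release channel gene Ryr2 was the 1 lost entry. The only other cardiomyocyte markers listed in both controls were the 5 in all 4 libraries. Of all entries in both controls 3.22% were lost, and no test was made on so short a list. Fibroblast markers had 3 (α-KG 1), 4 (α-KG 2), 5 (control 1) and 4 (control 2) of 6 genes, with no entry for Col1a2. In the same order, endothelial markers had 5, 6, 4 and 6 of 6. Smooth muscle markers had 3, 2, 1 and 3 of 5, with no entry for Acta2 and Tagln, and immune markers 1, 2, 2 and 2 of 5, with no entry for Cd68, Cd3e and Cd79a. Hepatocyte and kidney tubule markers had 3, 5, 3 and 1 of 6, with no entry for Lrp2. The part of other cell types in the transporter listing was not tested.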

How the data were processed

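The authors deposited, for each H3K27me3 library, a list of genes with a peak (Ensembl gene ID, symbol and protein domain names), with no header, count, score or position. CASAVA, BWA, MACS2 and the build rn6 appear in the submitters' processing notes with neither role nor version. Settings of the peak caller, any use of an input and the rule that ties peaks to genes were not given in the sources used here. Read depth is unknown, so no interval was computed.

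The lists were joined by gene ID in Python 3.11.15 with pandas 2.3.3 and numpy 2.4.6. Figures were drawn with matplotlib 3.10.9. Counts and shares per library were compared by exact two-sided permutation of the 4 libraries, and other counts are given beside the share of all entries without a test. The lost and gained calls were checked on simulated lists seeded with those patterns, which the calls return by definition. The permutation test was checked on a made-up example, and the other steps were not checked in this way. RefSeq names, gene order and promoter windows are of GRCr8, which differs from rn6. RefSeq has 70 protein-coding genes under the symbol rule, 61 with an entry under that symbol. Members, role groups, partner and marker lists were chosen with earlier results of these data known. The naming rule covers every member; 2 of them are not reported here by name. Alternatives left out 1 library at a time or used a replicate block, symbols in place of IDs, or protein-coding symbols alone.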

Additional observations from a re-analysis of the deposited data

How the results depend on the processing

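The difference in listed entries (α-KG minus control, 2 entries) ranged from -0.5 to 4.5 when 1 library was left out, and it was -0.5, a reversal, without α-KG replicate 1. The difference in the share of the list (-0.0023 percentage points) ranged from -0.0243 to 0.0197. It was positive without α-KG replicate 2 (0.0197), without control replicate 1 (0.0108) and with RefSeq protein-coding symbols alone (0.00104). Lost entries numbered 1 to 5 and gained entries 1 to 6 when 1 library was left out, because fewer libraries had to share the pattern. Leaving out any library but control 2 raised the lost count to 2 or 5, and leaving out any but α-KG 2 raised the gained count to 3, 4 or 6, against 1 each with all 4. Entries in every library numbered 43 to 47, against 42 with all 4. With 2 pairs, same-numbered libraries deviated together with a correlation of 0.0478 over all entries, so the numbers were not taken to pair the libraries. In both groups the replicate 2 list was the longer (19181 against 18120 for α-KG, 18442 against 17245 for control). Whether same-numbered libraries shared a batch was not tested. The replicate block gave the same differences, 2 entries and -0.0023 percentage points (exact sign-flip p = 1.0 for both). The entries differed by 4 in replicate 1 and 0 in replicate 2, so every sign flip gives a difference of the same size. With 2 pairs the sign-flip test cannot give less than 0.5. Adding the 2 entries under an older symbol, chosen after the data were seen, gave 1.5 entries, 1 lost and 1 gained. The planned settings for promoter CG content were not run because too few windows matched. A count of listed genes cannot show changes in peak strength, and unknown read depth limits every comparison.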

Other observations

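The symbol rule missed some entries with the families' protein domains. Of the 14 entries with the sodium/solute symporter domain that marks SLC5, 12 were members. RGD1563815, an older symbol of Slc5a1l1 in RefSeq, was listed in α-KG 2, control 1 and control 2. An entry with no symbol, ENSRNOG00000049734, was listed in both α-KG libraries and in neither control. Of the 19 entries with the organic anion transporter polypeptide domain, 15 were members, and Slc21a4, an older symbol of Slco1a3, was listed in all 4 libraries. Slco1b3 is an older RefSeq symbol of Slco1b2, and Slco1a2 of both Slco1a4 and Slco1a5. The protein-coding family genes Slc16a13, Slc22a13l1, Slc22a16, Slc22a21 and Slc5a3 had no entry under a current or older symbol in the lists used here.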
